A study of Mus musculus with 8 samples.

Results

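The complement genes C1qa, C1qb, C1qc, C2, C3, C4b, Cfb, Cfi and Cd55 were taken by symbol from a table of gene counts of mouse ileal crypt cells, in which they are 9 of 55487 named genes. They were chosen as components and regulators of the complement pathway, with earlier results of these data known. All 9 passed the filter on low counts. The CPT-11 group held 4 libraries from C57BL/6 mice given CPT-11 (irinotecan, a prodrug whose product poisons topoisomerase I) at 20 mg per kg for 7 days, and the vehicle group held 4 libraries from C57BL/6 mice given vehicle. The vehicle is not named, and the labels give neither age nor sex. Crypts, the pockets that hold the stem, Paneth and dividing cells of the gut lining, were released from opened ileum with EDTA and dissociated with trypsin, with no sort against other cells. Nothing in the labels says that each library came from its own mouse, so p-values measure only the spread between these libraries, which may be technical.

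Complement is a cascade of proteins that tag and lyse targets and call in phagocytes. The classical pathway starts when C1q, built of A, B and C chains, binds antibody or damaged surfaces and activates the proteases C1r and C1s. These cleave C4 and C2, whose fragments form an enzyme that cleaves C3. In the alternative pathway, factor B (Cfb) pairs with cleaved C3 to make a further C3-cleaving enzyme. Factor I (Cfi) inactivates cleaved C3 and C4, and the membrane protein CD55, or decay accelerating factor, takes the C3-cleaving enzymes apart on host cells. C1q is made largely by macrophages and dendritic cells, while C3 and factor B can be made by epithelial and stromal cells of the gut as well as by the liver.

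Total counts were 20790164 to 23479121 per library. CPT-11 replicate 2 stood apart, since its Spearman rho across genes with the rest of its group was 0.931 to 0.962, while the remaining CPT-11 libraries had 0.973 to 0.988 with each other, and genes with a length of 5000 bases or more gave 5.25% of its counts, against 7.00% to 10.95% in the other 7 libraries. C3 and C4b are above that length, and the C1q chains, at 1040 to 1203 bases, are below it. Of 9 crypt base markers 7 had negative fold changes in CPT-11 libraries. By edgeR 4 were called lower at an adjusted p below 0.05, among them Lgr5. The epithelial marker Epcam was at 1670 to 2013 CPM (counts scaled to the TMM-adjusted size of each library) in CPT-11 libraries and at 1272 to 1722 CPM in vehicle libraries.

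Cd55 rose 2.09-fold and C1qc 2.56-fold in CPT-11 crypts, and the other members did not pass the test. The 2 that rose compare with 2.98% of all 14011 genes tested that were called higher (quasi-likelihood test of edgeR, adjusted p below 0.05 by the method of Benjamini and Hochberg), and with 5.5% called in either direction. No member was called lower by edgeR, DESeq2 or limma-voom, against 2.52% of all genes by edgeR. At an unadjusted p below 0.05, 6 members were higher and 0 lower, against 13.4% and 11.2% of all genes. DESeq2 called 5 members higher (Cd55, C1qc, C1qb, C2 and C4b), against 1003 of the 15335 genes to which it gave an adjusted p. Limma-voom called 3 members higher (Cd55, C1qc and C2), against 413 of 14011 genes. Of the 9 log2 fold changes 8 were positive, with a median of 1.06, against a median of 0.01 over all genes tested. The 20 other complement genes tested had a median of 0.49, with 14 positive and 6 negative. Because the members were chosen with earlier results of these data known, these comparisons are a description and no test of the set. Cd55, C1qc and C2 were higher in every CPT-11 library than in any vehicle library, as were 8.41% of all genes tested. No member was below every vehicle library in every CPT-11 library, which held for 10.1% of all genes tested. In these bulk preparations more cells of a type and more RNA per cell cannot be told apart.

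**Figure D1:**
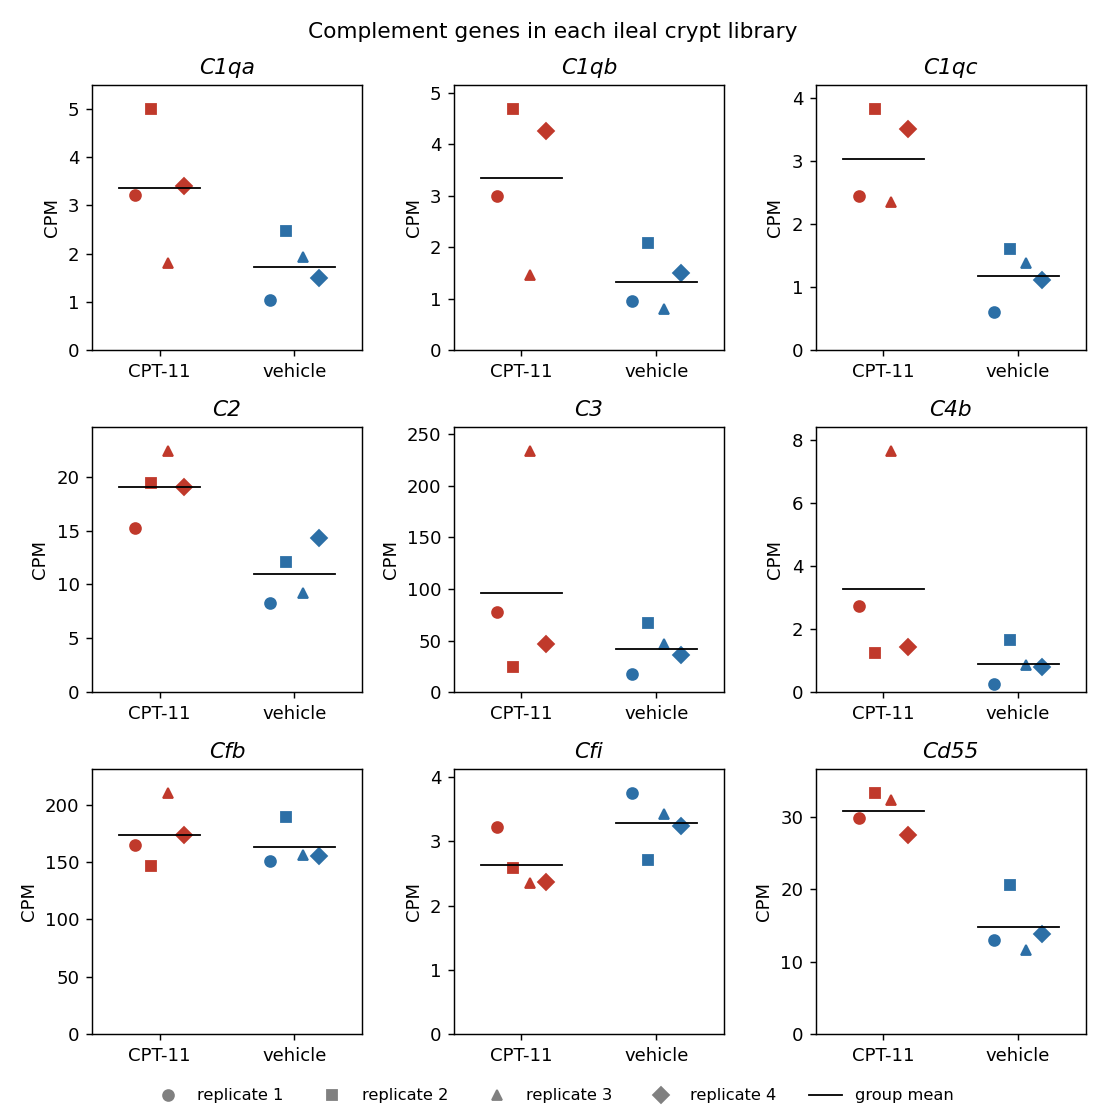
Scaled counts (CPM) of each complement gene in every library, with CPT-11 at the left and vehicle at the right of each panel, symbols for replicates 1 to 4 and a line at each group's mean. Cd55, C1qc and C2 do not overlap between the groups, and the CPT-11 means of C3 and C4b are raised by replicate 3 (234 and 7.66 CPM).

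Levels can be compared between genes only per length, and for this each CPM was divided by the deposited gene length in kilobases (RPKM). Cfb was the most abundant member, with 63.4 ± 9.77 RPKM in CPT-11 libraries and 59.5 ± 6.50 RPKM in vehicle libraries (mean ± SD, n = 4 each). C3 followed with 18.6 ± 18.4 RPKM in CPT-11 libraries and 8.14 ± 4.00 RPKM in vehicle libraries, and its range of mean ± SD took in that of Cd55 in both groups (12.1 ± 1.02 RPKM with CPT-11 and 5.83 ± 1.57 RPKM with vehicle). C2 came next, at 7.20 ± 1.12 RPKM with CPT-11 and 4.15 ± 1.05 RPKM with vehicle. The C1q chains lay close together, at 2.52 to 3.23 RPKM on average with CPT-11 and at 0.978 to 1.66 RPKM with vehicle. Cfi was at 1.27 ± 0.197 RPKM with CPT-11 and 1.58 ± 0.211 RPKM with vehicle, with a range of mean ± SD that met those of C1qa and C1qb in vehicle libraries and lay below all 3 chains in CPT-11 libraries. C4b had the lowest mean, at 0.607 ± 0.559 RPKM with CPT-11 and 0.168 ± 0.107 RPKM with vehicle.

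Among the regulators, Cd55 rose and Cfi did not pass the test. Cd55 lies on chromosome 1, 130439027 to 130462744 on the minus strand (GRCm38, GENCODE M21), and is protein-coding. It had 29.9, 33.3, 32.3 and 27.5 CPM in CPT-11 replicates 1 to 4, and 13.0, 20.6, 11.6 and 13.8 CPM in vehicle replicates 1 to 4. The CPT-11 libraries lay close together, with a coefficient of variation of 8.4%, against 26.9% with vehicle. The groups did not overlap, although vehicle replicate 2 stood above the other vehicle libraries. The log2 fold change was 1.06 ± 0.18 (SE), with an edgeR adjusted p of 0.0125. The call was lost without vehicle replicate 1 (adjusted p = 0.0549) or 3 (0.0505), fits in which the number of genes called higher overall also dropped, to 132 in each, against 417 with all libraries. Cd55b, the near-identical neighbour 16017 bases away that is known mainly from testis, had 2.03 to 6.03 counts per CPT-11 library and 1 to 5.03 per vehicle library and was below the filter. With the pair summed, the log2 fold change was again 1.06 (adjusted p = 0.0124).

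The Cd55 promoter is shown because Cd55 is the member with the smallest p. It covers chr1:130462695-130462994 of GRCm38.p6 on the minus strand, from RefSeq, with 250 bases before and 50 after the annotated start, and capitals mark matches to the motifs searched.
Cd55: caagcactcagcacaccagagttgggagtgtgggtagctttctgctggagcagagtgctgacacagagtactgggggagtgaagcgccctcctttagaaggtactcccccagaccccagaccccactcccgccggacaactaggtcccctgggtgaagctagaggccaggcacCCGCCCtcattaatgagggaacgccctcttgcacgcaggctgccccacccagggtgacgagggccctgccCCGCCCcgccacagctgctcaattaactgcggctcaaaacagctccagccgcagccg
Both strands were searched for TATAAA, for the interferon-stimulated response element GAAANNGAAA, for the C/EBP site TTGCNNAA, for the PU.1 site GAGGAAGT, for the GC box GGGCGG, and for the NF-kB consensus and the p53 half-site. The Cd55 window has a GC content of 63.3% and held only the GC box, which read as its complement CCGCCC 77 and 7 bases before the start. That motif occurs in 35.7% of the 32851 RefSeq promoters of this length. RefSeq promoters were matched for 4 of the 9 members (Cd55, C1qb, C1qc and C3), and C1qa, C2, C4b, Cfb and Cfi were not matched.

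Cfi, on chromosome 3, 129835884 to 129875332 on the plus strand, is a low-abundance transcript here. It had 71, 42, 56 and 48 counts in CPT-11 replicates 1 to 4 and 86, 57, 82 and 76 counts in vehicle replicates 1 to 4. On the CPM scale this was 2.34 to 3.22 in CPT-11 libraries and 2.70 to 3.75 in vehicle libraries, which overlap. The log2 fold change of -0.32 ± 0.21 did not pass (adjusted p = 0.371), and it was negative in all 19 alternatives.

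Other regulators were read from a list of 17 genes, of which 10 were tested, and 1 was called higher and 0 lower by edgeR, with 3 higher and 1 lower at an unadjusted p below 0.05. The gene that rose was Clu, clusterin, a secreted chaperone that also blocks the terminal complex. It had 10.6, 8.57, 13.6 and 11.3 CPM in CPT-11 replicates 1 to 4 and 2.53, 6.30, 3.26 and 4.61 CPM in vehicle replicates 1 to 4 (2.65-fold, adjusted p = 0.0206). The groups did not overlap, and the call was lost without CPT-11 replicate 1 (0.0514) or 4 (0.0539) or vehicle replicate 1 (0.0593), 3 (0.0829) or 4 (0.0517). C4bp, the C4 binding protein, was at 15.5 to 23.0 CPM in CPT-11 libraries and 10.2 to 13.7 CPM in vehicle libraries, a log2 fold change of 0.59 that did not pass (adjusted p = 0.0839). C4bp passed with DESeq2 (0.0395, and 0.0254 on the genes of the edgeR filter), without CPT-11 replicate 2 (0.0483) and with the length trend removed (0.0437). Cr1l, the rodent membrane regulator Crry, was the abundant counterpart of Cd55, at 54.7 to 63.3 CPM with CPT-11 and 51.5 to 54.9 CPM with vehicle (log2 fold change 0.10, adjusted p = 0.584), with its sign turned once each library's trend on gene length was removed (-0.016). The count of Cd55 over that of Cr1l was 0.546, 0.595, 0.589 and 0.435 in CPT-11 replicates 1 to 4 and 0.253, 0.377, 0.219 and 0.251 in vehicle replicates 1 to 4. All CPT-11 ratios exceeded all vehicle ratios. The pair of genes was chosen after their values were seen, so the permutation test run on this ratio is no support and is not reported. Cd55 over Epcam was 0.0158 to 0.0182 in CPT-11 libraries and 0.00800 to 0.0125 in vehicle libraries.

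Cd46 and Cd59a, further membrane regulators, were near the detection limit. Cd46 had 18.2 to 31.0 counts in CPT-11 libraries and 22.2 to 30.3 counts in vehicle libraries. Cd59a had 8 to 14 counts in CPT-11 libraries and 8 to 27 counts in vehicle libraries. Neither passed the test (log2 fold changes -0.09 and -0.19, adjusted p = 0.870 and 0.837), and both changed sign in some alternatives, Cd59a to 0.42 without vehicle replicate 2. Cd59b, its paralogue, had 1 to 9 counts in CPT-11 libraries and 11.1 to 24 counts in vehicle libraries, which did not overlap (log2 fold change -1.57, adjusted p = 0.0877), and Cd59b passed with DESeq2 on the genes of the edgeR filter (0.0489).

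The chains of C1q were all higher on average in CPT-11 crypts, and C1qc passed the test. The genes lie side by side on chromosome 4 on the minus strand, C1qb at 136880129 to 136886187, C1qc at 136889804 to 136893065 and C1qa at 136895917 to 136898803 (GRCm38), each with 3 exons and protein-coding. C1qc had 54, 62, 56 and 71 counts in CPT-11 replicates 1 to 4 and 14, 34, 33 and 26 counts in vehicle replicates 1 to 4. Scaled, these were 2.45, 3.82, 2.34 and 3.51 CPM with CPT-11 and 0.610, 1.61, 1.38 and 1.11 CPM with vehicle. The groups did not overlap, with a log2 fold change of 1.36 ± 0.33 (adjusted p = 0.0445). The call was lost without CPT-11 replicate 1 (0.0753) or 4 (0.102), without vehicle replicate 1 (0.106), 2 (0.0609), 3 (0.110) or 4 (0.106), and without CPT-11 replicates 2 and 4 together (0.108). In each of these fits with 1 library left out, genes called higher overall also dropped, to 132 to 275, against 417 with all libraries.

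C1qb and C1qa had the same library order at the top, with CPT-11 replicate 2 highest and CPT-11 replicate 3 the lowest of its group. C1qb had 2.997, 4.69, 1.46 and 4.25 CPM in CPT-11 replicates 1 to 4 and 0.959, 2.08, 0.793 and 1.49 CPM in vehicle replicates 1 to 4. Its log2 fold change of 1.32 ± 0.42 missed the threshold (adjusted p = 0.0973), but C1qb passed without CPT-11 replicate 3 (0.0311) and with DESeq2 (0.027). C1qa had 3.22, 5.00, 1.80 and 3.41 CPM in CPT-11 replicates 1 to 4 and 1.05, 2.46, 1.92 and 1.49 CPM in vehicle replicates 1 to 4. Its log2 fold change of 0.95 ± 0.36 did not pass (adjusted p = 0.147) in any alternative (0.0521 to 0.408). In both genes the groups overlapped only through CPT-11 replicate 3. With each library's trend on gene length removed, the log2 fold changes were smaller, at 0.66 for C1qa, 1.03 for C1qb and 1.14 for C1qc. Of the chains only C1qc passed in that fit (edgeR adjusted p = 0.0348). The chains together had 134 to 226 counts per CPT-11 library and 60 to 130 counts per vehicle library. The shares of the chains varied between libraries, with C1qa at 30.5% to 37.2%, C1qb at 26.1% to 38.1% and C1qc at 28.3% to 41.8% in CPT-11 libraries, and at 36.5% to 46.9%, 19.4% to 36.7% and 23.3% to 33.7% in vehicle libraries. They were furthest apart in the replicates numbered 3, with C1qb at 26.1% and C1qc at 41.8% in CPT-11 replicate 3, and C1qb at 19.4% and C1qa at 46.9% in vehicle replicate 3.

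The promoters of C1qb and C1qc are shown because these neighbours lie 3616 bases apart and had similar fold changes. They cover chr4:136886151-136886450 and chr4:136892865-136893164 of GRCm38.p6 on the minus strand (RefSeq, the same window around the start), with motif matches in capitals.
C1qb: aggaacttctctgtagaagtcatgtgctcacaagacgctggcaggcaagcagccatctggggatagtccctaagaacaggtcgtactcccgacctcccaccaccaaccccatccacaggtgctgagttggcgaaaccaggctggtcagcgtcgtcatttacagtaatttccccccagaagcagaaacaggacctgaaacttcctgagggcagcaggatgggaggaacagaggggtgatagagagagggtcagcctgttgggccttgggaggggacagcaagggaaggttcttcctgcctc
C1qc: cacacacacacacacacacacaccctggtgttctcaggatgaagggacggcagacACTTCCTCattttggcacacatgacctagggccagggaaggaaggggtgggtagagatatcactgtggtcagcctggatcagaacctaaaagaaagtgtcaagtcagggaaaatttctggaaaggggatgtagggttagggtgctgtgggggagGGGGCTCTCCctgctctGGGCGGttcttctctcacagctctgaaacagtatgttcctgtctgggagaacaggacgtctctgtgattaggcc
The C1qb window held none of the motifs searched. The C1qc window held the PU.1 site, read as its complement ACTTCCTC from 195 bases before the start and found in 3.20% of all promoters, and the NF-kB consensus GGGGCTCTCC from 41 bases before it, found in 8.46%. It also held the GC box from 24 bases before it, and the matches did not overlap. These distances are from the RefSeq start. The GENCODE span of C1qc begins further upstream, at 136893065 inside this window. The NF-kB and GC box matches lie within that span and the PU.1 match lies upstream of it.

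Some macrophage genes were higher in CPT-11 libraries and others were not, and their part in the result was not tested. Of 22 macrophage and dendritic cell markers, a list without C1q, 12 were tested, 9 of these had positive fold changes and 2 were called higher (median log2 fold change 0.80). The 2 calls became 1 without CPT-11 replicate 1 or 4 or vehicle replicate 1, 3 or 4, 4 without CPT-11 replicate 2, and 5 without CPT-11 replicate 3 or with DESeq2. None was called lower by edgeR, DESeq2 or limma-voom, and 0 were lower at an unadjusted p below 0.05. Their summed level was 248 to 327 CPM in CPT-11 libraries and 177 to 241 CPM in vehicle libraries. Cd163 was at 0 in every library, and Adgre1, which encodes F4/80, had 3 to 9 counts per library. Lyz2, Mertk and Laptm5 had negative fold changes (-0.12, -0.40 and -0.07 on the log2 scale), as did the myeloid chain Itgam (-2.30), and none of these passed the edgeR test. The markers called were Cd14, the lipopolysaccharide co-receptor (2.49-fold, adjusted p = 0.00658), and Aif1 (4.35-fold, adjusted p = 0.0229), a call that was lost without CPT-11 replicate 1 (0.0714) or 4 (0.0539) or vehicle replicate 1 (0.0843), 3 (0.0842) or 4 (0.0721). Csf1r, the receptor of the macrophage growth factor, had 3.22, 8.76, 1.97 and 3.07 CPM in CPT-11 replicates 1 to 4 and 1.22, 2.32, 1.38 and 2.13 CPM in vehicle replicates 1 to 4. Its log2 fold change of 1.26 ± 0.46 did not pass (adjusted p = 0.133) and was 0.65 without CPT-11 replicate 2. The C1q count per count of Csf1r overlapped between the groups, at 1.54 to 3.65 with CPT-11 and 1.92 to 2.97 with vehicle. Per count of Tyrobp, a myeloid and natural killer cell adaptor, it was 0.876 to 1.16 with CPT-11 and 0.671 to 1.69 with vehicle, which also overlapped.

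**Figure D2:**
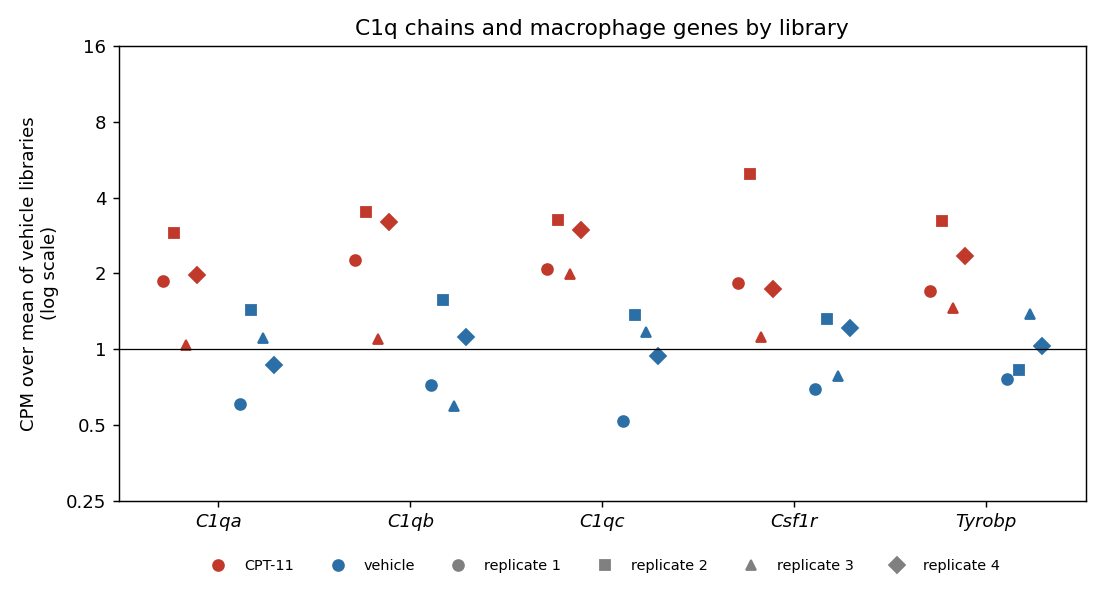
CPM of each C1q chain and of the macrophage genes Csf1r and Tyrobp in every library, divided by the mean of the vehicle libraries, on a log scale, with CPT-11 in red at the left and vehicle in blue at the right. CPT-11 replicate 2 was the highest library for all 5 genes, at 2.89 to 4.97 times the vehicle mean, and CPT-11 replicate 3 the lowest of its group.

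Of the genes that build the C3-cleaving enzymes, none passed the test by edgeR, with C2 closest. C2 had 15.2, 19.4, 22.4 and 19.0 CPM in CPT-11 replicates 1 to 4 and 8.24, 12.1, 9.23 and 14.3 CPM in vehicle replicates 1 to 4. Every CPT-11 library was above every vehicle library, the closest pair being CPT-11 replicate 1 and vehicle replicate 4. The log2 fold change was 0.79 ± 0.20 with an adjusted p of 0.0504, and it passed in 10 of 18 alternatives (0.00458 to 0.163), including those that left out CPT-11 replicate 2 (0.0387) or vehicle replicate 4 (0.0441).

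Cfb, the neighbour of C2, had 165, 147, 210.1 and 173 CPM in CPT-11 replicates 1 to 4 and 151, 189, 156 and 155 CPM in vehicle replicates 1 to 4. The groups overlapped. Its log2 fold change was 0.09 ± 0.14 (adjusted p = 0.712), and it was -0.016 without CPT-11 replicate 3. The genes lie on chromosome 17 on the minus strand, Cfb at 34856374 to 34862518 and C2 at 34862604 to 34898265, with 85 bases between them. The annotated read-through gene Gm20547 overlaps both on the same strand, so estimated counts may be split among the 3 genes, and Zbtb12 overlaps C2 on the other strand. Gm20547 had 19.4, 162, 57.5 and 44.9 counts in CPT-11 replicates 1 to 4 and 31.6, 44.4, 14.99 and 42 counts in vehicle replicates 1 to 4, with CPT-11 replicate 2 apart from the rest. Its log2 fold change of 1.37 did not pass (adjusted p = 0.238) and was 0.32 without CPT-11 replicate 2. All 3 summed gave a log2 fold change of 0.17 (adjusted p = 0.476). Most of this sum was Cfb, so it cannot show whether C2 changed.

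The count of C2 over that of Cfb was 0.0925, 0.133, 0.107 and 0.110 in CPT-11 replicates 1 to 4 and 0.0547, 0.0638, 0.0592 and 0.0922 in vehicle replicates 1 to 4. All CPT-11 ratios were above all vehicle ratios, although CPT-11 replicate 1 and vehicle replicate 4 nearly met. This ratio too was chosen after its values were seen, and its permutation test is likewise not reported. With Gm20547 counted to C2 the ratio was 0.0977 to 0.201 in CPT-11 libraries and 0.0632 to 0.104 in vehicle libraries, which overlapped.

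**Figure D3:**
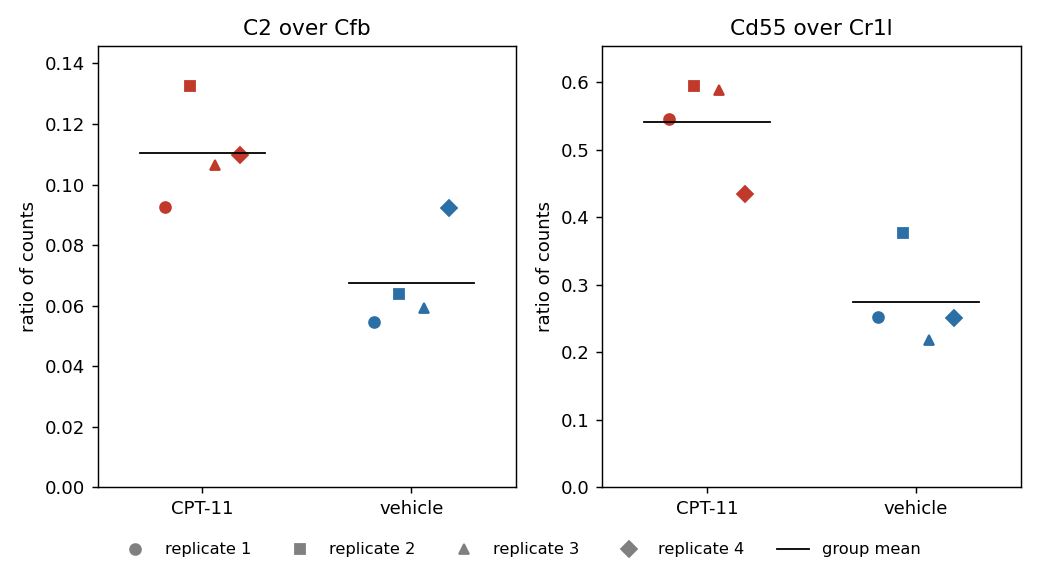
Ratio of the count of C2 to that of Cfb, and of Cd55 to Cr1l, in each library, with CPT-11 at the left, vehicle at the right and a line at each group's mean. The means were 0.110 with CPT-11 and 0.0675 with vehicle for C2 over Cfb, and 0.541 with CPT-11 and 0.275 with vehicle for Cd55 over Cr1l.

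C3 and C4b had large fold changes that rested on CPT-11 replicate 3. C3, on chromosome 17 at 57203970 to 57228136 on the minus strand, had 77.6, 24.8, 234 and 46.7 CPM in CPT-11 replicates 1 to 4 and 17.5, 66.7, 46.7 and 36.3 CPM in vehicle replicates 1 to 4. CPT-11 replicate 3 was far above all others, while CPT-11 replicate 2 was below 3 of the 4 vehicle libraries. The log2 fold change of 1.20 ± 0.63 did not pass (adjusted p = 0.267) and was 0.25 without CPT-11 replicate 3. C4b, at 34728380 to 34743882 on the same chromosome and strand, had 59.9, 20, 183 and 29 counts in CPT-11 replicates 1 to 4 and 6, 34.9, 20.9 and 19 counts in vehicle replicates 1 to 4. The same library was the highest, and the groups overlapped. The log2 fold change of 1.87 ± 0.67 did not pass (adjusted p = 0.128) and was 1 without CPT-11 replicate 3, while C4b passed with DESeq2 (0.0357) and without CPT-11 replicates 2 and 4 together (0.0467). C4a, a near-identical copy 65209 bases away that GENCODE lists as a processed transcript, had 1 to 16 counts per CPT-11 library and 3 to 16 per vehicle library, below the filter. With both copies summed the log2 fold change was 1.49 ± 0.52 (adjusted p = 0.119).

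The C3 promoter is shown because C3 is the member that varied most in absolute level between libraries. It covers chr17:57228087-57228386 of GRCm38.p6 on the minus strand (RefSeq, the same window), with motif matches in capitals.
C3: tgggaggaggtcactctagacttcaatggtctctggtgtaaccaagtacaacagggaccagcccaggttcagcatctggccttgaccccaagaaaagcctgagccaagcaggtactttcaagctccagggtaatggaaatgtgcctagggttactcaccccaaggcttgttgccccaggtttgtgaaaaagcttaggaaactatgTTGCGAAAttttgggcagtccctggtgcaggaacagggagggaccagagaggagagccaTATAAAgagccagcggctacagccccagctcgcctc
The window held the C/EBP site from 45 bases before the annotated start, a motif in 10.8% of all promoters, and TATAAA from position 15 after it, a motif in 13.6%. None of the 4 windows held the interferon-stimulated response element (3.44% of all promoters) or the p53 half-site (8.36%).

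Other genes that were highest in CPT-11 replicate 3 included the classical proteases C1ra and C1s1 and the C1 inhibitor Serping1. C1s1 was at 14.9 CPM in that library, at 1.11 to 4.13 CPM in the other CPT-11 libraries and at 0.567 to 2.56 CPM in vehicle libraries. C1ra was at 11.2 CPM there, at 2.28 to 3.91 CPM in the other CPT-11 libraries and at 1.66 to 2.51 CPM in vehicle libraries. None of these genes passed the edgeR test, with log2 fold changes of 2.27 for C1s1 (adjusted p = 0.105), 1.26 for C1ra (0.139) and 1.46 for Serping1 (0.0885). Without CPT-11 replicate 3 the values were 1.24, 0.52 and 0.89. DESeq2 called C1s1 (0.012) and Serping1 (0.0143), C1s1 passed in edgeR without CPT-11 replicate 2 (0.0498) and C1ra without CPT-11 replicates 2 and 4 together (0.0153).

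Collagen genes were also highest in CPT-11 replicate 3, and their part in the result was not tested. Of 12 fibroblast and muscle markers 8 were tested, and 0 were called by edgeR, DESeq2 or limma-voom, with 2 higher and 0 lower at an unadjusted p below 0.05 (median log2 fold change 0.97). Without CPT-11 replicate 2, alone or together with replicate 4, 1 was called higher. Their summed level was 26.5 to 123 CPM in CPT-11 libraries, the highest in replicate 3, and 13.9 to 51.5 CPM in vehicle libraries, the lowest in replicate 1. No marker of the list was at 0 in every library. Col3a1, type III collagen, had 10.4, 5.06, 39.1 and 6.28 CPM in CPT-11 replicates 1 to 4 and 1.87, 9.48, 3.97 and 3.54 CPM in vehicle replicates 1 to 4. Like C3 it was highest in CPT-11 replicate 3 and lowest in vehicle replicate 1. The count of C3 per count of Col3a1 was 4.90 to 7.43 with CPT-11 and 7.04 to 11.8 with vehicle. For C4b this ratio was 0.196 to 0.261 with CPT-11 and 0.140 to 0.229 with vehicle. Both ratios overlapped between the groups, with the CPT-11 mean below the vehicle mean for C3 (6.44 with CPT-11 and 9.60 with vehicle) and above it for C4b (0.232 with CPT-11 and 0.191 with vehicle).

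**Figure D4:**
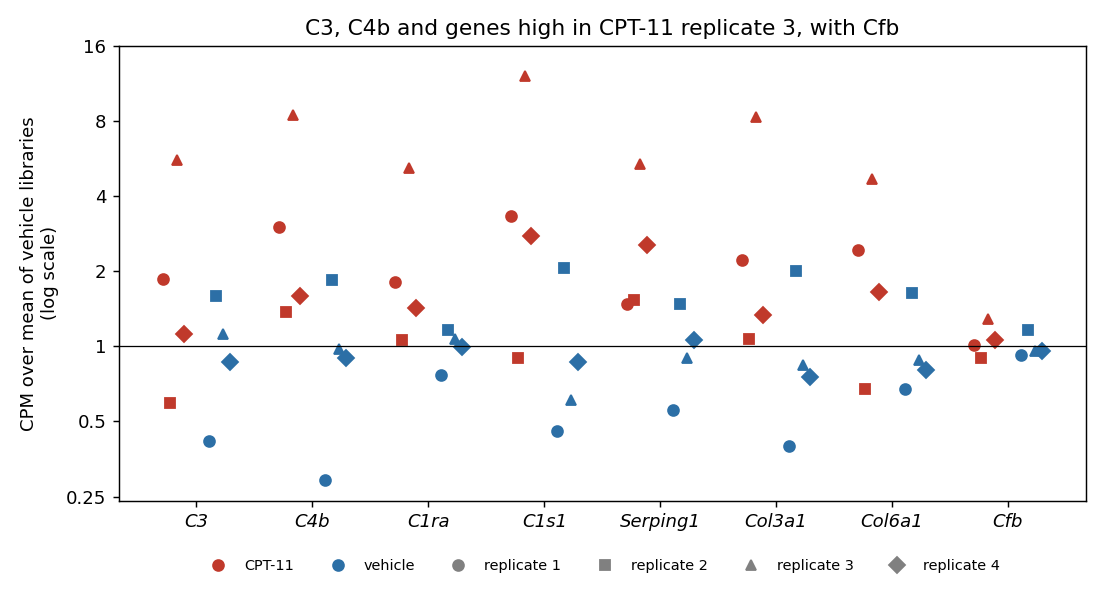
CPM of C3, C4b, classical pathway proteases and their inhibitor, 2 collagen genes and Cfb in every library, divided by the mean of the vehicle libraries, on a log scale, with CPT-11 in red at the left and vehicle in blue at the right. CPT-11 replicate 3 was the highest library for every gene drawn, at 5.59 times the vehicle mean for C3 and 8.49 times for C4b, but only 1.29 times for Cfb.

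Within the groups the members fell into sets, given here as a description of 8 libraries that share depth and preparation. With each group's mean removed from log2 CPM, C3 and C4b had r = 0.97, C3 and Cfb 0.89, and C4b and Cfb 0.85. The C1q chains had r = 0.60 to 0.87 among themselves and -0.49 to 0.02 with C3. Cfi ran against C2 (r = -0.74) and against Cfb (-0.64). Outside the members, the tested genes most like C3 were Ehd2 (r = 0.991), Wnt9a (0.981) and Ltbp4 (0.979), and those most like Cfb were Wnt5a (0.976), Ddr1 (0.968) and Stx3 (0.968). For C1qa these were Gnat2 (0.973), Hsf1 (0.968) and Mlx (0.967), for Cfi Twnk (0.980), Ccnb1 (0.971) and Mtmr2 (0.943), and for Cd55 Scp2 (0.984), Ret (0.956) and Cnep1r1 (0.953). These genes were picked for the highest r among all genes tested, so the values are no evidence of a link with the member.

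In the rest of the pathway, 49 further genes were listed and 20 tested, of which 2 were called higher and 0 lower by edgeR (median log2 fold change 0.49), against 2.98% and 2.52% of all genes. At an unadjusted p below 0.05, 7 were higher and 2 lower. Limma-voom called 3 higher and 0 lower, against 413 higher and 381 lower of all 14011 genes. DESeq2 on the genes of the edgeR filter called 6 higher and 2 lower (Itgam and Cd59b), against 1045 and 839 of 13984 genes. DESeq2 with its own filter, which also takes in rarer genes, called 6 higher and 2 lower as well, against 1003 and 806 of 15335 genes. The lower ones were Itgam and Cfd, the protease factor D. Cfd had 0 to 2 counts per CPT-11 library and 1, 5, 8 and 31 counts in vehicle replicates 1 to 4. These overlapped, and Cfd did not pass in edgeR with no filter (adjusted p = 0.0835). The gene called beside Clu was Mbl2, a mannose-binding lectin that starts the lectin pathway. It had 12.9, 12.4, 10.5 and 4.70 CPM in CPT-11 replicates 1 to 4 and 1.83, 3.98, 2.05 and 0.427 CPM in vehicle replicates 1 to 4, with no overlap between the groups (4.91-fold, adjusted p = 0.0377). The call was lost without CPT-11 replicate 1 (0.0887) or 2 (0.0588) or vehicle replicate 1 (0.122) or 3 (0.121), without CPT-11 replicates 2 and 4 together (0.0809) and with no filter (0.102). Of 4 initiation genes tested 1 was called, and of 2 amplification and terminal genes 0, with 0 at an unadjusted p below 0.05 in either direction. Cfp, properdin, which stabilises the alternative pathway enzyme, was at 0.837 to 2.28 CPM with CPT-11 and 0.459 to 1.41 CPM with vehicle (log2 fold change 0.82, adjusted p = 0.256). C8a, C8b, Mbl1, Fcnb, Colec10, Ptx3, Vtn and Csmd1 were at 0 in every library.

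Of 4 complement receptors tested 0 were called by edgeR, with 1 higher and 1 lower at an unadjusted p below 0.05. Cr2, the receptor for C3 fragments on B cells, had 21, 11, 25 and 26 counts in CPT-11 replicates 1 to 4 and 3, 0, 10 and 0 counts in vehicle replicates 1 to 4. The groups did not overlap, but the adjusted p of 0.0704 did not pass except without CPT-11 replicate 2 (0.0461) or vehicle replicate 3 (0.0441), with DESeq2 (0.0111), with limma-voom (0.0248) or with the length trend removed (0.0451). Some B cell genes were also higher, and their part was not tested. Of 7 B and plasma cell markers tested 4 were called higher and 0 lower by edgeR, against 2.98% and 2.52% of all genes. Ms4a1, which encodes CD20, was at 0.921 to 1.88 CPM with CPT-11 and 0.128 to 0.459 CPM with vehicle. Cd79a was at 2.22 to 6.78 CPM with CPT-11 and 0.174 to 1.67 CPM with vehicle. Cd79b was at 3.14 to 5.37 CPM with CPT-11 and 0.741 to 2.30 CPM with vehicle. Jchain, Xbp1 and Derl3 had log2 fold changes of -0.43, -0.03 and 0.06, and none passed (edgeR adjusted p of 0.737 or more). The list's summed level, mostly Xbp1, was 192 to 258 CPM with CPT-11 and 199 to 230.3 CPM with vehicle. The 4 calls became 0 without CPT-11 replicate 1 or 4 or vehicle replicate 1 or 4, 1 without vehicle replicate 2 or without CPT-11 replicates 2 and 4 together, 1 with the replicate block and 2 with the stricter filter.

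Itgam, the alpha chain of complement receptor 3 on myeloid cells, had 8.06, 0, 21.02 and 11.3 counts in CPT-11 replicates 1 to 4 and 49.6, 62.6, 38.5 and 57.4 counts in vehicle replicates 1 to 4. Every CPT-11 library was below every vehicle library. The log2 fold change of -2.30 ± 0.61 missed the threshold (adjusted p = 0.0579), but Itgam passed in 7 of 19 alternatives, including DESeq2 (0.000811), no filter (0.0467) and the fits without CPT-11 replicate 2 (0.0113) or 3 (0.032). Its partner chain Itgb2 was at 7.83 to 9.79 CPM with CPT-11 and 6.06 to 19.2 CPM with vehicle (log2 fold change -0.31, adjusted p = 0.555), with vehicle replicate 4 highest and a value of 0.074 without it. The receptors for the small fragments C3a and C5a, C3ar1 and C5ar1, had 1 to 13 and 0 to 7 counts in CPT-11 libraries and 0 to 7 and 0 to 2 counts in vehicle libraries. Both were below the filter, and without it neither passed (log2 fold changes 0.94 for C3ar1 and 1.86 for C5ar1, edgeR adjusted p = 0.535 and 0.417).

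Of 22 cytokine signal genes, a list that includes known inducers of C3 and Cfb, 18 were tested. Il6, Ifng, Il1a and Il1b were below the filter, with at most 17 counts per library. By edgeR 2 were called higher and 0 lower, against 2.98% and 2.52% of all genes. At an unadjusted p below 0.05, 5 were higher and 0 lower, against 13.4% and 11.2% of all genes. Of the 18 fold changes 14 were positive and 4 negative (median log2 fold change 0.17). Tnf, tumour necrosis factor, had 2.63, 2.65, 2.89 and 4.00 CPM in CPT-11 replicates 1 to 4 and 0.349, 0.805, 0.334 and 0.725 CPM in vehicle replicates 1 to 4, and rose 5.48-fold (adjusted p = 0.00589). All CPT-11 libraries were above all vehicle libraries, and the call held in all 19 alternatives. The other gene called was Il1rn, the interleukin 1 receptor antagonist (log2 fold change 4.10). Of 17 acute-phase genes, which are induced with complement in the liver, 1 was tested, Saa1, which encodes serum amyloid A. It was called higher, at 2.20 CPM on average with CPT-11 and 0.144 CPM with vehicle (log2 fold change 3.88, adjusted p = 0.0127), and the call was lost with limma-voom (0.0579) and without vehicle replicate 3 (0.0593). Below the filter, Serpina3n had 24, 8, 75 and 4 counts in CPT-11 replicates 1 to 4 and 0 in every vehicle library, and passed with no filter (edgeR adjusted p = 0.0411) and with DESeq2 (6.1e-06). Saa3 had 4.76 to 109 counts in CPT-11 libraries, the most in replicate 3, and 0 to 5.01 in vehicle libraries, and it passed with DESeq2 (0.0057) but not in edgeR with no filter (adjusted p = 0.163). Lcn2 had 2 to 10 counts in CPT-11 libraries and 0 to 2 in vehicle libraries (0.128 with no filter). With no filter, Hp, Orm1, Orm2, Fgb, Fgg and Itih4 had negative log2 fold changes (-0.78 to -3.09). Saa2, Hpx, Cp, Fga and Crp had positive ones (0.06 to 2.46). None of these passed (edgeR adjusted p of 0.412 or more), and A2m and Apcs were at 0 in every library.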

How the data were processed

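The authors deposited a table of estimated counts per gene, with group means and gene lengths, for 4 CPT-11 and 4 vehicle libraries of ileal crypt cells. Bowtie2 2.4.1 and genome build GRCm38.p6 are named per the submitters' processing notes. The quantification tool and its strand setting were not given in the sources used here. Between 10.3% and 11.1% of each library's values were not whole (tolerance 0).

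Counts were rounded. Rows with no gene name (0.325% to 0.662% of counts) were left out. edgeR 4.0.16 in R 4.3.3 was run over the whole table with TMM scaling, the default filter (count of 10, total of 15) and robust quasi-likelihood tests, two-sided. It tested 14011 genes, with Benjamini-Hochberg adjustment over all of them and a threshold of 0.05, and the code was tested on simulated data. SEs come from the F statistic, and CPM uses the TMM-scaled total. Counting error limits genes of few counts. Coordinates are those of GENCODE M21.

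The members and gene lists were chosen with earlier results of these data known. Named genes are all members, up to 3 genes of smallest p per list, every called gene of the complement lists, and a set of standing names (C4a, Cd55b, Gm20547, Cd46, Cd59a, C3ar1, C5ar1, Csf1r, Adgre1, Itgam, Epcam and Lgr5), and some named items are not reported here. The genes most like a member were the top 3 by Pearson r of log2 CPM (prior count of 2) over 8 libraries with group means removed. The lists covered complement genes, cytokine signal and acute-phase genes, genes near C2 and Cfb, and markers of macrophages, neutrophils, fibroblasts, endothelium, B cells, T cells, hepatocytes, epithelium, enterocytes and the crypt base. Alternatives were scaling by RLE or upper quartile, no filter, a stricter filter (CPM of 1 in 4 libraries), DESeq2 1.42.0, limma-voom (limma 3.58.1), the replicate number as a block, near-identical genes summed and each library left out. DESeq2 used its own filter over all genes with a count. Leaving out CPT-11 replicates 2 and 4 together, removing each library's trend on gene length and DESeq2 on the genes of the edgeR filter were chosen after seeing the data.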

Additional observations from a re-analysis of the deposited data

Results flagged for a closer look

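Of 82 groups of 4 libraries examined for the genes named here, 9 had a library apart from the rest by Dixon's criterion on the gap over the range, where chance gives about 5%. Col3a1 and Tnxb were at 39.1 and 3.06 CPM in CPT-11 replicate 3, against 5.06 to 10.4 CPM and 0.863 to 0.987 CPM in the other CPT-11 libraries. Gm20547, the read-through gene over C2 and Cfb, was at 9.99 CPM in CPT-11 replicate 2, against 0.863 to 2.39 CPM in the others of its group, and Fabp2 was at 19046 CPM there, against 4628 to 6743 CPM. C4bp and Cr1l were at 23.0 and 63.3 CPM in CPT-11 replicate 4, against 15.5 to 16.8 CPM and 54.7 to 56.0 CPM in the other CPT-11 libraries. Cfb and Cd59a were at 189 and 1.28 CPM in vehicle replicate 2, against 151 to 156 CPM and 0.349 to 0.459 CPM in the other vehicle libraries. Il1rn was at 0.501 CPM in vehicle replicate 3, against 0.698 to 0.725 CPM in the other vehicle libraries.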

How the results depend on the processing

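The 2 members called higher became 5 with DESeq2, whether with its own filter or on the genes of the edgeR filter, 4 with the replicate block and 0 to 3 with 1 library left out, and the number called lower was 0 in every alternative. For the other complement genes the 2 called higher became 6 with DESeq2 under either filter, 4 with the length trend removed, 1 with no filter and 0 to 4 with 1 library left out. The 0 called lower became 2 with DESeq2 under either filter, of which 1 differed (Cfd with its own filter, which changes tool and filter together, and Cd59b with that of edgeR), 1 with no filter, with the length trend removed or without CPT-11 replicates 2 and 4, and 0 to 1 with 1 library left out. Over all genes, 417 higher and 353 lower became 1003 and 806 with DESeq2, and 1045 and 839 with DESeq2 on the genes of the edgeR filter. They became 397 and 289 with the replicate block, and 684 and 615 with the length trend removed. Calls dropped to 219 and 173 without CPT-11 replicate 1, and to 275 and 202 without CPT-11 replicate 4. They also dropped without vehicle replicate 1 (132 and 108), 2 (220 and 183), 3 (132 and 104) or 4 (236 and 180). They rose without CPT-11 replicate 2 (637 and 540), CPT-11 replicate 3 (769 and 753), or CPT-11 replicates 2 and 4 together (637 and 575). A call lost or gained in such a fit therefore cannot be read as resting on that library for that gene alone. With 1 library left out, log2 fold changes ran from -0.016 (without CPT-11 replicate 3) to 0.18 for Cfb, from -0.24 to 0.013 for Cd46 (0.0089 without CPT-11 replicate 1), from -0.38 to 0.42 (without vehicle replicate 2) for Cd59a and from -0.53 to 0.074 (without vehicle replicate 4) for Itgb2. With the length trend removed Cd46 was at 0.16 and Cr1l at -0.016. The cause was not tested. Same-numbered libraries deviated together at r = 0.234, 0.144, -0.119 and 0.091 for numbers 1 to 4, so the numbers were not taken as pairs. With the block C2 and C1qb passed (adjusted p = 0.0498 and 0.0406). Genes below the filter, such as C3ar1 and C5ar1, were tested only with no filter or by DESeq2.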

Other observations

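Markers of other cells and the neighbours of C2 and Cfb were counted in the same fit. Of 12 enterocyte markers 1 was called higher and 11 had positive fold changes (median log2 fold change 0.65), with a summed level of 20097 to 61966 CPM in CPT-11 libraries and 13267 to 21633 CPM in vehicle libraries. The gene called was Fabp2, an intestinal fatty acid binding protein, with a log2 fold change of 1.95 (edgeR adjusted p = 0.0337). Fabp2 no longer passed without CPT-11 replicate 1 (0.0574) or vehicle replicate 1 (0.115), 2 (0.0766), 3 (0.12) or 4 (0.0783). Of 9 neutrophil markers 1 was tested and called higher, Ltf, which encodes lactoferrin and is also made by epithelia (log2 fold change 4.18, adjusted p = 0.000198), while Ly6g, Mpo and Camp were at 0 in every library.

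Of 2 endothelial, 10 T cell, 3 hepatocyte and 9 epithelial markers tested 0 were called by edgeR or limma-voom, and DESeq2 with its own filter called 1 endothelial marker higher. At an unadjusted p below 0.05, 1, 2, 0 and 1 of them were higher and 0 were lower. Hepatocyte markers summed to 5.23 to 16.3 CPM in CPT-11 libraries and 8.24 to 9.57 CPM in vehicle libraries. Of 8 genes tested near C2 and Cfb 1 was called higher, Tnxb, which encodes the matrix protein tenascin X (log2 fold change 2.52, adjusted p = 0.0334). Tnxb no longer passed without CPT-11 replicate 4 (0.053) or vehicle replicate 1 (0.0993), 2 (0.0764), 3 (0.112) or 4 (0.0728). Tnxb was highest in CPT-11 replicate 3, at 12.1 times the vehicle mean.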
